A study of Mus musculus with 9 samples.

Results

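The core pluripotency factors are 6 genes, Pou5f1, Sox2, Nanog, Sall4, Lin28a and Utf1, followed here in mouse embryonic stem cells exposed to the kinase inhibitor 5-Iodotubercidin (5-ITu). They were taken as a named list, each with the brightest probe set that carries its symbol alone, among 8625 genes measured by such probe sets. Each of the 6 had exactly 1 such probe set, and all 6 were among the 8198 genes tested. 5-ITu is an analogue of adenosine that blocks Haspin, the kinase that phosphorylates histone H3 at threonine 3. Cells of the line E14, labelled with the developmental stage E3.5, were kept undifferentiated in serum and LIF, a cytokine that sustains self-renewal. They were exposed for 26 h to solvent alone (DMSO), 0.1 μM 5-ITu or 1.0 μM 5-ITu, and each condition was measured on 3 Affymetrix Mouse Gene 2.0 ST arrays, 9 in all. E14 is a single line. The methods speak of biological replicates but neither they nor the labels name separate cultures, so the p values measure the spread between these arrays, which may be partly technical. With 3 arrays a condition, precision is limited.

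Pluripotent cells hold a small circuit of transcription factors. Pou5f1 encodes Oct4, a POU factor, which binds DNA together with the HMG-box factor Sox2 at paired octamer and SOX sites, and the homeodomain factor Nanog joins them at many of the same genes and stabilises self-renewal. Sall4, a zinc finger factor, works with Oct4 and recruits the NuRD corepressor, Utf1 encodes a chromatin-bound protein restricted to pluripotent and germ cells and driven by Oct4 and Sox2, and Lin28a encodes an RNA-binding protein that blocks maturation of the let-7 microRNAs. Of 12 genes fixed as defining markers of stem cells, 10 were measured (Dppa5a and Fut4 were not analysed here). Their summed linear signal was 40932 to 41428 in DMSO, 42043 to 42602 at 0.1 μM and 39150 to 40375 at 1.0 μM. Of these 10, 1 gene, the Nodal co-receptor gene Tdgf1, passed limma's adjusted threshold at 1.0 μM against DMSO, and none did at 0.1 μM. Of all tested probe sets, 27.7% passed at 1.0 μM and 6.23% at 0.1 μM. With no adjustment, 1 of the 10 had a p under 0.05 at 0.1 μM and 3 at 1.0 μM. The share of all tested probe sets with such an unadjusted p was not computed.

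The promoters of the 2 factors that fell, Lin28a and Utf1, and of Nanog, which holds the paired site of Oct4 and Sox2, are shown as the 250 bases before a RefSeq start, 5′ to 3′ along the gene (GRCm38.p6). Capitals mark 4 short motifs looked for on both strands: the octamer core ATGCAAA, the SOX core CATTGT, the GC box GGGCGG and the TATA box TATAAA.
Lin28a, chr4:134018817-134019066, minus strand: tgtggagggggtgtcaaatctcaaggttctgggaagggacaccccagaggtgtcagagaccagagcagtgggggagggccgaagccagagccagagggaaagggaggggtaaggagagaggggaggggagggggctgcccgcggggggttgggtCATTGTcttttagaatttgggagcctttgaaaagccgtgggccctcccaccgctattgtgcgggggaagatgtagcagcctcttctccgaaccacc
Utf1, chr7:139943606-139943855, plus strand: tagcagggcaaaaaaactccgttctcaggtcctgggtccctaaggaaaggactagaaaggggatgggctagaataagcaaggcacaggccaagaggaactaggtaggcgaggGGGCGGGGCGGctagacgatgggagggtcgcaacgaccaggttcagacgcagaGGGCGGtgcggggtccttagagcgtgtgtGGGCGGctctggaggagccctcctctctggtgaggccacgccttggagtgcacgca
Nanog, chr6:122707239-122707488, plus strand: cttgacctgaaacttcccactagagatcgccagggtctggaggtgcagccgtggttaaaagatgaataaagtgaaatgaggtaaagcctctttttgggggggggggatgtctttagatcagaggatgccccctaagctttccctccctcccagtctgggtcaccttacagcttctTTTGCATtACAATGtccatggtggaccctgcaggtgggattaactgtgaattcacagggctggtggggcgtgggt

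The Lin28a window holds 1 SOX core, from -96 to -91, and no octamer core. The Utf1 window holds the GC box at 4 places, a pair of which share a base, and neither the octamer nor the SOX core. Nanog has the octamer core from -75 to -69 and the SOX core from -67 to -62, both on the minus strand and 1 base apart. Over all 32851 RefSeq promoter windows of this length, 4.12% hold the octamer core, 10.7% the SOX core, 32.7% the GC box and 12.4% the TATA box. Read along either strand, the SOX core followed by exactly 1 base and the octamer core occurs in 2 of them, which are the 2 overlapping windows of Nanog. Other orders and orientations of the pair were not searched. The Sox2 window holds an octamer core from -99 to -93 and 2 GC boxes. Of the 2 Pou5f1 windows, 1 holds a GC box and the other a SOX core. A match is a run of letters and not a binding site, and these windows leave out distal enhancers.

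At 1.0 μM 5-ITu, Lin28a and Utf1 fell, and Pou5f1, Sox2, Nanog and Sall4 did not pass the test in either direction. At 0.1 μM none of the 6 passed. Lin28a fell by 34.1% and Utf1 fell by 15.5% against DMSO. Of the 6 factors, 2 were therefore lower at 1.0 μM and none was higher, where 14.3% of all tested probe sets were lower, 13.4% higher and 27.7% changed in either direction (limma, adjusted p under 0.05). With limma's unadjusted p under 0.05 and a change over 1.5-fold, 1 of the 6 (Lin28a) was lower at 1.0 μM. The share over all tested probe sets was 1.92%. The methods pair that fold cut-off with a one-way F over the 3 groups instead. At 0.1 μM, 0 of 6 passed limma's adjusted threshold, where 6.23% of all tested probe sets passed it. With no adjustment, 0 of 6 had a p under 0.05, and no such share was computed over all tested probe sets. Over the 3 groups together, limma's moderated F called 2 of 6, again Lin28a and Utf1, beside 35.3% of all tested probe sets, and so did the one-way F of the methods after adjustment.

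**Figure D1:**
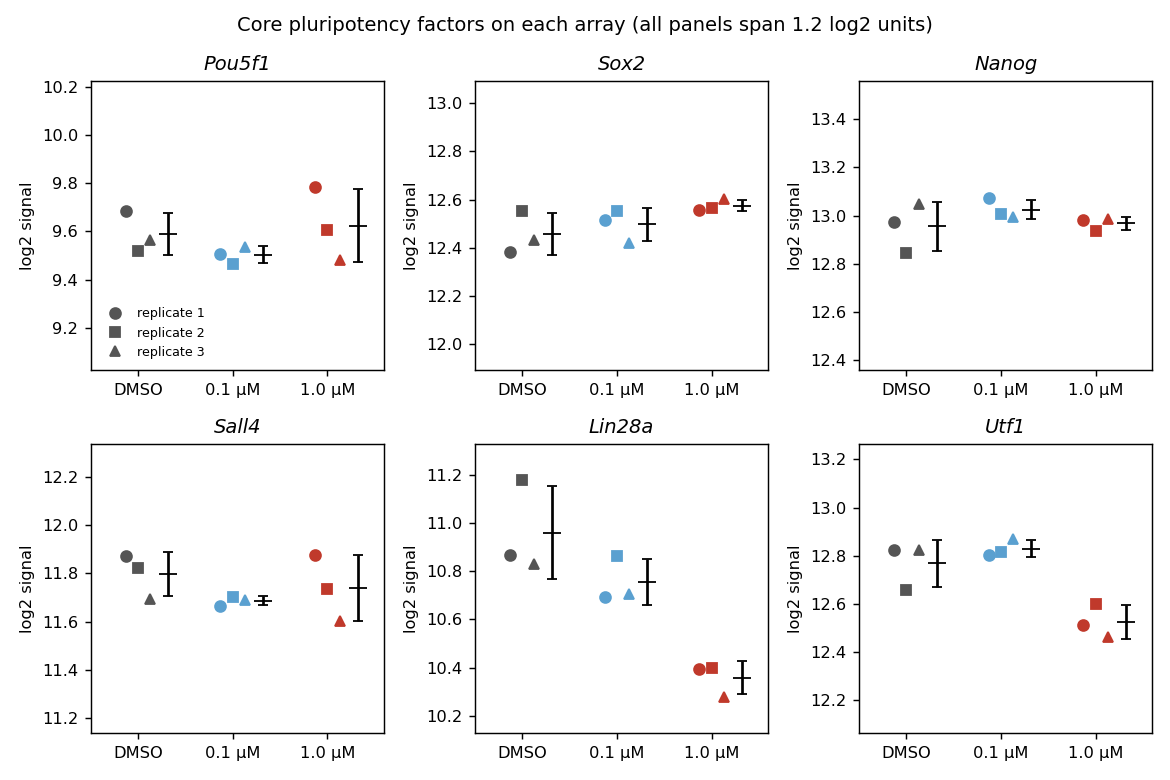
Log2 signal of each core factor on each of the 9 arrays, by condition; symbols mark the replicate, and the bar beside each group gives its mean ± SD (n = 3). The 3 arrays at 1.0 μM lie below all others for Lin28a and Utf1, while the groups of Pou5f1 and Sall4 overlap.

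Lin28a had a log2 signal of 10.87, 11.18 and 10.83 in DMSO, of 10.69, 10.87 and 10.71 at 0.1 μM and of 10.39, 10.40 and 10.28 at 1.0 μM. The arrays at 1.0 μM were the lowest 3 of the 9, with a gap of 0.43 to the lowest DMSO array, while those at 0.1 μM overlapped with DMSO. The mean was 10.36 ± 0.069 at 1.0 μM and 10.96 ± 0.19 in DMSO (SD, n = 3 each), a log2 fold change of -0.60 (standard error 0.092, 95% confidence interval -0.81 to -0.40, adjusted p = 0.0016 from limma). That is 1.52-fold lower at 1.0 μM. The interval spans 1.5-fold (0.585 on the log2 scale), and the change was smaller than that in some alternatives, at -0.577 after quantile normalization and -0.509 with array weights. A two-sided exact permutation test of this difference gave p = 0.10, the smallest value that 3 arrays against 3 allow. Of all tested probe sets, 97.3% changed less than Lin28a at this dose. The DMSO group was uneven: replicate 2 lay 0.22 above the group mean, and without it the change was -0.49 (adjusted p = 0.0016 from limma). Over all alternatives that give an adjusted p, it ran between 0.00053 and 0.025, and the call held in each. At 0.1 μM the mean was 10.76 ± 0.096, a change of -0.20 against DMSO (95% confidence interval -0.41 to 0.0025, or -24.7% to 0.17%, adjusted p = 0.20 from limma). Set against 0.1 μM, Lin28a at 1.0 μM fell by 0.40 on the log2 scale (adjusted p = 0.011 from limma, standard error 0.092), with no overlap of the arrays. The order of the levels was DMSO, 0.1 μM, 1.0 μM from high to low, with the first pair not separated beyond its spread.

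Utf1 had a log2 signal of 12.82, 12.66 and 12.82 in DMSO, of 12.80, 12.81 and 12.87 at 0.1 μM and of 12.51, 12.60 and 12.46 at 1.0 μM. Again the 3 arrays at 1.0 μM were the lowest, but DMSO replicate 2 lay only 0.055 above the highest of them. The mean was 12.52 ± 0.071 at 1.0 μM and 12.77 ± 0.097 in DMSO (SD, n = 3 each), a change of -0.24 (standard error 0.059, 95% confidence interval -0.38 to -0.11, adjusted p = 0.015 from limma; exact permutation p = 0.10). This is 1.18-fold lower, and 77.9% of the tested probe sets changed less at 1.0 μM. The call was lost without DMSO replicate 3 (-0.22, adjusted p = 0.053 from limma) and in a fit of these 2 groups alone (adjusted p = 0.050). At 0.1 μM the mean was 12.83 ± 0.035, a change of 0.061 against DMSO (95% confidence interval -0.072 to 0.19, adjusted p = 0.56 from limma). The groups lay further apart between the doses, with a change of -0.30 at 1.0 μM against 0.1 μM (adjusted p = 0.0053 from limma, standard error 0.059) and a gap of 0.20 between the groups. From high to low, Utf1 ran 0.1 μM, DMSO, 1.0 μM, and the first pair did not differ beyond its spread.

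Sox2 was the only other factor whose arrays at 1.0 μM lay wholly to one side of DMSO. Its log2 signal was 12.38, 12.55 and 12.43 in DMSO, 12.52, 12.55 and 12.42 at 0.1 μM and 12.56, 12.57 and 12.60 at 1.0 μM. The separation from DMSO was 0.0042, which is far smaller than the spread of 0.17 among the DMSO arrays. The mean was 12.57 ± 0.024 at 1.0 μM and 12.46 ± 0.088 in DMSO (SD, n = 3 each), a difference of 0.12 (95% confidence interval -0.0068 to 0.25, adjusted p = 0.14 from limma). Without DMSO replicate 2 the difference was 0.17 and passed (adjusted p = 0.044 from limma). At 0.1 μM the difference from DMSO was 0.041 (95% confidence interval -0.085 to 0.17). The level was highest at 1.0 μM, then 0.1 μM, then DMSO, and no neighbouring pair passed the test.

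Nanog gave log2 signals of 12.97, 12.85 and 13.05 in DMSO, of 13.07, 13.01 and 12.996 at 0.1 μM and of 12.98, 12.94 and 12.98 at 1.0 μM. The arrays at 1.0 μM lay inside the range of the DMSO arrays, and 1 of those at 0.1 μM lay above it. The mean was 12.97 ± 0.026 at 1.0 μM and 12.96 ± 0.10 in DMSO (SD, n = 3 each), a difference of 0.013 with a 95% confidence interval of -0.11 to 0.14, which is -7.52% to 10.1% on the linear scale. The 0.1 μM mean was 13.03 ± 0.041, and the difference from DMSO was 0.070 (95% confidence interval -0.056 to 0.20, adjusted p = 0.48 from limma). The arrays at 1.0 μM were all below those at 0.1 μM, by at least 0.012, with a difference of -0.057 (adjusted p = 0.48 from limma) that turned to 0.022 after quantile normalization. From high to low the order was 0.1 μM, 1.0 μM, DMSO, and no neighbours differed beyond their spread.

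Pou5f1 and Sall4 had the widest spread of the 6 factors among the arrays at 1.0 μM. Pou5f1 had a log2 signal of 9.69, 9.52 and 9.56 in DMSO, of 9.51, 9.46 and 9.54 at 0.1 μM and of 9.78, 9.61 and 9.48 at 1.0 μM. The 1.0 μM group contained both the highest array of the 9 and 1 of the 2 lowest, a range of 0.30. Its mean was 9.62 ± 0.15 at 1.0 μM and 9.59 ± 0.086 in DMSO (SD, n = 3 each), a difference of 0.034 (95% confidence interval -0.14 to 0.20, adjusted p = 0.77 from limma). Without 1.0 μM replicate 1 this difference was -0.045. Its mean at 0.1 μM was 9.503 ± 0.036, with a difference of -0.087 from DMSO (95% confidence interval -0.26 to 0.084). For Pou5f1 the level ran from 1.0 μM over DMSO to 0.1 μM, with no neighbours apart beyond the spread.

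Sall4 had 11.87, 11.82 and 11.69 in DMSO, 11.66, 11.70 and 11.69 at 0.1 μM and 11.87, 11.74 and 11.60 at 1.0 μM on the same log2 scale. The 1.0 μM arrays spanned 0.27 and enclosed the other 6. Its mean was 11.74 ± 0.14 at 1.0 μM and 11.80 ± 0.092 in DMSO (SD, n = 3 each), a difference of -0.059 (95% confidence interval -0.22 to 0.10, adjusted p = 0.58 from limma). Its mean at 0.1 μM was 11.69 ± 0.019 and the difference -0.11 (95% confidence interval -0.27 to 0.051, adjusted p = 0.37 from limma). From high to low Sall4 ran DMSO, 1.0 μM, 0.1 μM, and no neighbours passed. The same arrays were high and low for both genes at 1.0 μM: replicate 1 lay 0.16 above the group mean for Pou5f1 and 0.14 above for Sall4, and replicate 3 had deviations of -0.14 for Pou5f1 and -0.14 for Sall4.

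**Figure D2:**
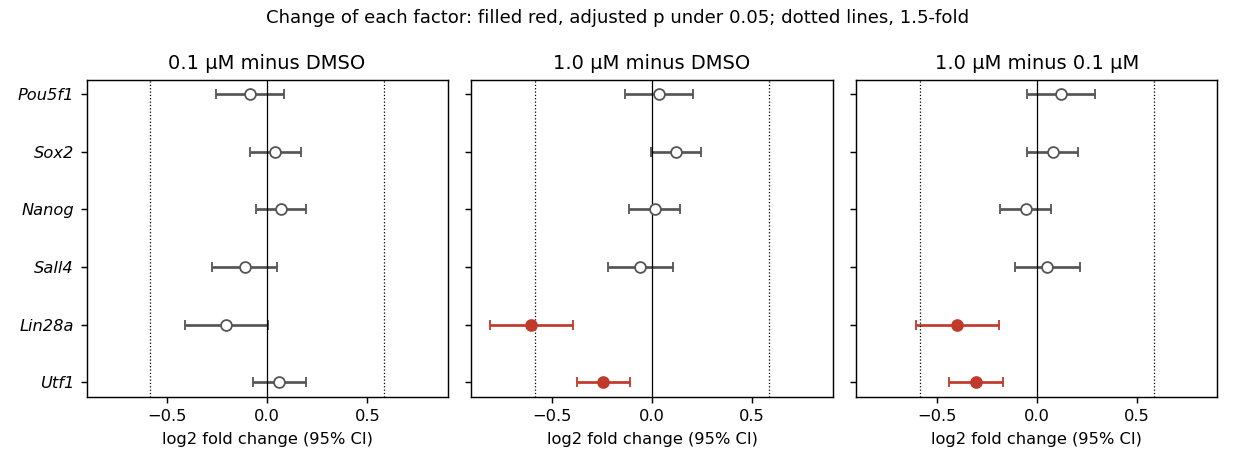
Log2 fold change of each factor with its 95% confidence interval from limma, for 0.1 μM minus DMSO, 1.0 μM minus DMSO and 1.0 μM minus 0.1 μM; filled red points passed an adjusted p under 0.05, and dotted lines mark 1.5-fold. At 1.0 μM against DMSO only Lin28a (-0.60) and Utf1 (-0.24) have intervals clear of 0. Only the point of Lin28a reaches the 1.5-fold line, which its interval spans.

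In the direct comparison of the doses, 2 of the 6 factors were lower at 1.0 μM than at 0.1 μM, Lin28a and Utf1, and none was higher, where 17.4% of all tested probe sets were lower and 29.7% changed in either direction. The arrays of these groups did not overlap for 4 of the 6 factors, against 51.6% of all tested probe sets. Between 1.0 μM and DMSO the arrays did not overlap for 3 of the 6, against 38.7%, and between 0.1 μM and DMSO for none, against 33.5%. The comparisons with DMSO share the 3 control arrays. Over the 6 factors, the median change was -0.023 at 0.1 μM and -0.023 at 1.0 μM, beside 0.0015 and -0.0056 over all tested probe sets. The 4 factors that did not pass at 1.0 μM had differences between -0.059 and 0.12, and the median size of a change over all tested probe sets at that dose, whatever its sign, was 0.12. The least moved was Nanog, and 6.22% of the tested probe sets changed less.

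**Figure D3:**
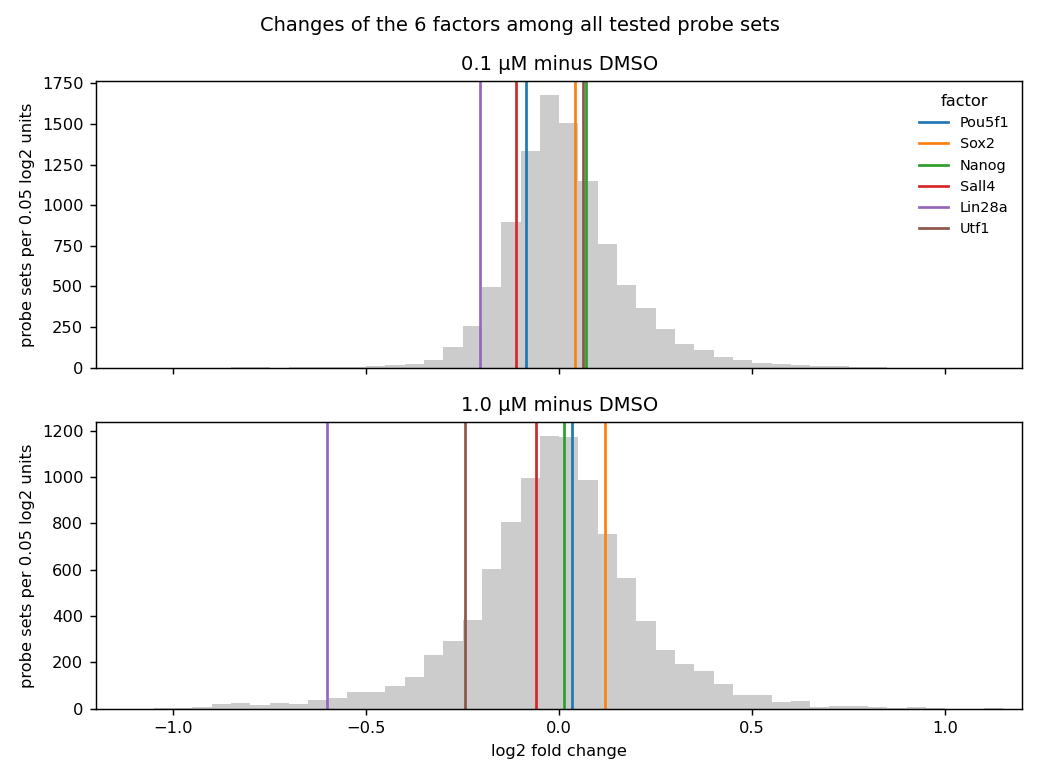
Number of tested probe sets per 0.05 log2 units of change against DMSO, at 0.1 μM (upper panel) and 1.0 μM (lower panel); the axis ends at 1.2 on either side, and coloured lines mark the 6 factors. At 1.0 μM Lin28a (-0.60) lies in the lower tail and Nanog (0.013), Pou5f1 (0.034) and Sall4 (-0.059) lie near the centre.

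The spread between replicate arrays sets what could be seen for each factor. Pooled over the 3 groups, the SD was 0.065 for Nanog, 0.066 for Sox2, 0.072 for Utf1, 0.096 for Sall4, 0.10 for Pou5f1 and 0.13 for Lin28a, and its median over all tested probe sets was 0.080. Lin28a was thus the most variable of the 6 as well as the most changed, and 83.6% of the tested probe sets had a smaller SD. All 6 were above the background threshold of the methods (8.46 on the log2 scale) on all 9 arrays, so none of them entered the test through one group alone. Pou5f1 had the lowest signal, with a DMSO mean of 9.59 where the other factors had 10.96 to 12.96. The median of all probe sets on the DMSO arrays was 9.72 to 9.73. How well the Pou5f1 probe set responds to its RNA was not tested. Pou5f1 and Nanog have pseudogenes, and Sox2 lies within the noncoding gene Sox2ot. Probe sequences were not analysed here, and the share of signal from these sources was not tested.

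Markers of other cell types were looked at in the same arrays. Of 8 macrophage markers, 2 were measured, Cd68 and Laptm5, and both were higher at 1.0 μM (by 0.91 and 0.30) and at 0.1 μM (by 0.73 and 0.33). Of all tested probe sets, 13.4% were higher at 1.0 μM and 4.66% at 0.1 μM. Laptm5 lost its call at 0.1 μM without DMSO replicate 2 or 3 or without 0.1 μM replicate 1 or 3. The summed linear signal of Cd68 and Laptm5 was 1759 to 2051 in DMSO, 2810 to 3078 at 0.1 μM and 3181 to 3224 at 1.0 μM. The defining markers Csf1r, Adgre1 and Ptprc were not analysed here. Of 10 fibroblast markers, 6 were measured, and their sum was 12565 to 13034 in DMSO, 13156 to 13575 at 0.1 μM and 11657 to 12709 at 1.0 μM. At 1.0 μM 2 of these 6 were lower and none higher, where 14.3% of all tested probe sets were lower. Tagln fell by 0.59 on the log2 scale (adjusted p = 0.0018 from limma), a call that held when any single array was left out. Fn1 fell by 0.20, a call lost without DMSO replicate 3 or 1.0 μM replicate 2 or 3. At 0.1 μM 2 of the 6, Thy1 (0.55) and Cald1 (0.27), were higher and none lower, where 4.66% of all tested probe sets were higher. Both calls were lost without DMSO replicate 1 or any 1 array of that dose. Cald1 further lost its call when DMSO replicate 3 was left out. Of 25 markers of differentiating lineages, 7 were measured, with sums of 4605 to 4681 in DMSO, 4789 to 5336 at 0.1 μM and 4583 to 4904 at 1.0 μM. Of the 5 lineage markers tested, 1 passed at each dose, where 6.23% of all tested probe sets passed at 0.1 μM and 27.7% at 1.0 μM. Krt8, a keratin gene of trophectoderm and other epithelia, was higher at 1.0 μM by 0.33, a call that the one-way F did not give, while Krt18 (0.20), Otx2 (-0.13), Lama1 (-0.082) and Dab2 (-0.028) did not pass. Lama1, a laminin gene, was higher at 0.1 μM by 0.39, a call lost without any 1 array of that dose. Whether any such cells were present, and any part of theirs in the falls of Lin28a and Utf1, was not tested. In such bulk RNA fewer expressing cells and less RNA per cell cannot be told apart.

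The genes whose values over the 9 arrays ran closest to each factor were found among 8041 tested genes by the root mean square difference of the log2 signals, each gene centred on its own mean. For Lin28a, whose own root mean square deviation was 0.27, these were Cemip2, a cell surface hyaluronidase gene (difference 0.068), Lgr4, a receptor gene for R-spondins (0.080), and the zinc finger gene Zik1 (0.081), where the median gene differed by 0.28. All 3 had their highest array in DMSO replicate 2, as Lin28a did. For Utf1, with a deviation of 0.14, they were Dcps, a scavenger decapping enzyme gene (0.031), Tdgf1 (0.036) and Nfu1, a gene of iron-sulfur cluster assembly (0.039), where the median gene differed by 0.17. The other 4 factors varied less over the arrays, and the nearest genes were Cherp for Pou5f1 (0.034), Sipa1l1 for Sox2 (0.023), Mrpl22 for Nanog (0.028) and Polr1a for Sall4 (0.027). These distances are descriptions over 9 arrays, and they come from the same values as the changes above.

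**Figure D4:**
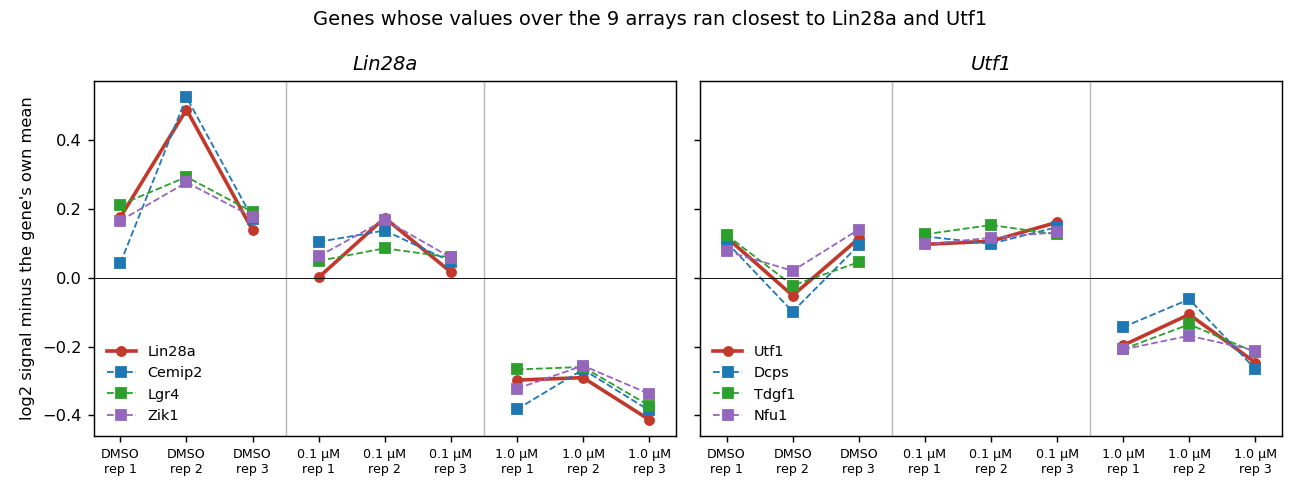
Log2 signal minus the gene's own mean on each of the 9 arrays, for Lin28a (left) and Utf1 (right) in red and the 3 genes closest to each in other colours. Every gene but Dcps has its 3 lowest values at 1.0 μM, and the 4 genes on the left are all highest in DMSO replicate 2.

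Around the core factors, the transcription factors and targets tied to them in stem cells moved both ways at 1.0 μM. Of 28 such genes, 24 were tested: 5 were higher, 6 lower and 13 did not pass, where 13.4% of all tested probe sets were higher and 14.3% lower. Their median was -0.11 beside -0.0056 over all tested probe sets. Klf4, a Krüppel-like factor of naive cells, was higher by 0.77 (adjusted p = 0.00011 from limma), the T-box factor gene Tbx3 by 0.49 and Prdm14, which represses differentiation genes, by 0.45. Tdgf1 (-0.24) and Stat3, the transducer of LIF (-0.28), were lower, and so was Dppa2, a chromatin regulator gene named after its values were seen (-0.22). At 0.1 μM, 2 of the 24 were higher, where 4.66% of all tested probe sets were, namely the Akt coactivator gene Tcl1 (0.55, adjusted p = 0.0041 from limma) and Prdm14 (0.31), whose call was lost without DMSO replicate 2 and without any 1 of the 3 arrays at 0.1 μM. Fgf4, a classical joint target of Oct4 and Sox2, was chosen after its values were seen: its difference from DMSO was -0.24 at 1.0 μM (adjusted p = 0.052 from limma), and its difference between 1.0 μM and 0.1 μM was -0.37 (adjusted p = 0.0085 from limma), a call that the one-way F did not give. Klf4, Tbx3, Dppa2, Tdgf1, Stat3 and, at 1.0 μM, Prdm14 kept their calls against DMSO when any single array was left out, while the list's 11 calls were 7 without 1.0 μM replicate 2. Gdf3, a TGF-beta family ligand gene named here as the lowest of the list, fell by 0.64. Its call was lost without DMSO replicate 1, with the 2 groups fitted alone and by the one-way F. Gbx2, also named after its values were seen, was higher by 0.65 (adjusted p = 0.045 from limma), a call lost without DMSO replicate 2 or 3, among other arrays.

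Genes of proteins that bind Oct4, Nanog or Sall4, mostly of the NuRD and BAF chromatin complexes, were followed as a further list. Of 27 genes, 25 were tested, and 5 were lower, none higher and 20 did not pass at 1.0 μM (median -0.073), where 14.3% of all tested probe sets were lower and 27.7% were called in either direction. Pbrm1, a BAF-type subunit gene, fell by 0.31 (adjusted p = 0.0035 from limma), and the call held when any single array was left out. The other calls, Mta1 (-0.15) of NuRD, Smarca4 (-0.20), the BAF ATPase gene, the histone demethylase gene Kdm1a (-0.20) and Parp1 (-0.20), were each lost on leaving out any of at least 5 of the 9 arrays. With 1 array left out, 1 to 5 of the 25 were called, and there was 1 call without 0.1 μM replicate 1 or 3 or without 1.0 μM replicate 2. At 0.1 μM none of the 25 passed limma's adjusted threshold, where 6.23% of all tested probe sets did. Unadjusted, 4 had a p under 0.05, and no such share was computed over all tested probe sets. The F tests over the 3 groups called 4 (moderated, beside 35.3% of all tested probe sets) and 3 (one-way, beside 2447 of the 9911).

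The Lin28a pathway comprises enzymes of let-7 processing and decay and genes that let-7 represses. Of 20 genes, 13 were tested, and at 1.0 μM 2 were higher, 1 lower and 10 did not pass (median 0.042), a share of calls near the 27.7% of all tested probe sets. There were 5 calls without DMSO replicate 1. Cdc25a, a phosphatase gene of cell cycle entry and a let-7 target, was higher by 0.29 (adjusted p = 0.0015 from limma). The cyclin gene Ccnd1, higher by 0.31, and the RNA-binding protein gene Igf2bp3, which fell by 0.19, both lost their calls without DMSO replicate 2, among other arrays. Hmga2, the chromatin protein gene best known as a let-7 target, was higher at 0.1 μM (0.29, adjusted p = 0.023 from limma) but not at 1.0 μM (0.052), and the call at 0.1 μM was lost without DMSO replicate 1 or any 1 array of that dose. The uridylyl transferase genes Tut4 and Tut7, whose enzymes act with Lin28a on let-7 precursors in mouse cells, were also named after their values were seen. They had differences of 0.16 and 0.22 from DMSO at 1.0 μM and did not pass (adjusted p = 0.066 and adjusted p = 0.053 from limma). Trim71 and Dis3l2 of the same list, likewise named afterwards, lay as near the threshold in the other direction. Their differences were -0.25 and -0.23 (adjusted p = 0.051 and adjusted p = 0.059 from limma). Of the let-7 RNAs themselves, none was analysed here.

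Of 20 relatives of the core factors in the POU, SOX, SALL and LIN28 families, 8 were tested. At 1.0 μM, 1 was higher and 3 were lower (median -0.17), where 13.4% of all tested probe sets were higher and 14.3% lower. In all, 2 were called without DMSO replicate 1 or 1.0 μM replicate 3. Sox12, a SOX factor of another subgroup than Sox2, fell by 0.59 on the log2 scale (adjusted p = 0.00056 from limma), and Sox15 was higher by 0.39 (adjusted p = 0.0086 from limma), and both calls held when any single array was left out. Pou3f1, a POU factor gene of the epiblast, fell by 0.31, a call lost without DMSO replicate 1 or 1.0 μM replicate 3. Sox4 (-0.25) lost its call without any of several arrays. Sox15 was also higher at 0.1 μM (0.47, adjusted p = 0.016 from limma), but not without any 1 array of that dose. Of 10 genes tied to the breakdown or level control of Oct4, 9 were tested. None of them passed limma's adjusted threshold against DMSO at either dose, where 6.23% of all tested probe sets passed at 0.1 μM and 27.7% at 1.0 μM. With no adjustment, 0 had a p under 0.05 at 0.1 μM and 3 at 1.0 μM, and no such share was computed over all probe sets.

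**Figure D5:**
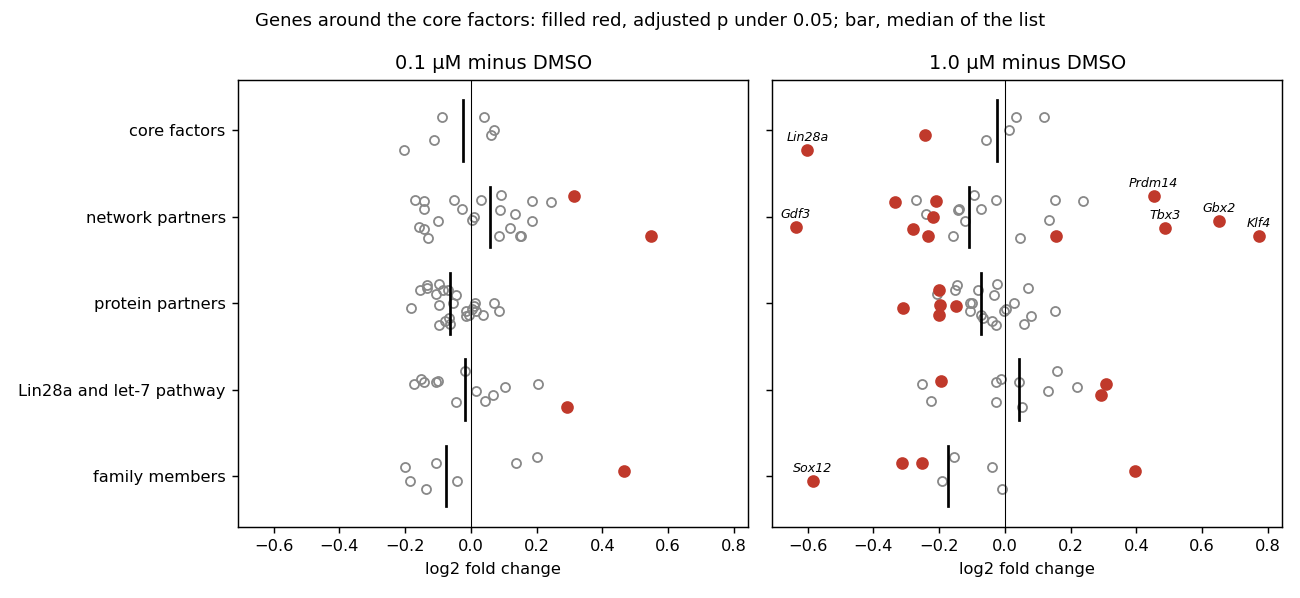
Log2 fold change against DMSO of the core factors and 4 lists of related genes, at 0.1 μM (left) and 1.0 μM (right); red points passed an adjusted p under 0.05 and black bars are list medians. At 1.0 μM the calls range from Klf4 (0.77) to Gdf3 (-0.64), and Lin28a (-0.60) is near the lower end.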

How the data were processed

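The deposited log2 values were made by the authors with RMA (background correction, normalization and probe summary, Affymetrix Expression Console) from 9 arrays, without pooling, for 10476 probe sets. They were used as deposited. Every one lay above the methods' background threshold (8.46) on at least 1 array, and the 9911 above it on at least 3 arrays were tested. The probe annotation names no build. It gives 1 symbol for 8854 probe sets, and no probe set with several symbols was used to name a gene.

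A single linear model of the 3 groups was fitted to the 9 arrays (limma 3.58.1, R 4.3.3), since the methods test the groups together, and p values were adjusted by Benjamini-Hochberg over the 9911 probe sets (threshold 0.05). The fit was tested on simulated data. Exact permutation tests were two-sided. The named genes are the 6 factors, up to 6 called genes per list with the smallest F p, and the 3 genes closest to each factor, and others are identified where named. Members and lists were chosen with earlier results of these data known. Alternatives were other filters, normalizations, variance models, array weights, the replicate number as a block, the one-way F, other call thresholds, 1 probe set per gene and leaving out each array. Promoters came from RefSeq (GRCm38.p6), which matched 5 of the 6 factors. Figures were drawn with matplotlib 3.10.9.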

Additional observations from a re-analysis of the deposited data

How the results depend on the processing

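The 18 changes of single factors were recomputed under up to 22 alternatives each, 390 values in all, of which 372 kept their direction and their side of the threshold. Many of these alternatives alter only the spread, the adjustment or the call rule, and leave the fold change itself as it was. Leaving out an array of the group not compared does the same. Direction could not turn in those cases, so the 372 overstate how far it was put to the test. The 2 calls at 1.0 μM against DMSO, both falls, became 1 (Lin28a) with these groups fitted alone and with the unadjusted p and 1.5-fold rule. With an array left out the calls ranged from 1 to 3, and the third, without DMSO replicate 2, was Sox2, which was higher. By the 1.5-fold rule 0 of the 2 falls between the doses passed. At 0.1 μM the one-way F and the moderated F gave 2 calls in place of 0, since each tests all 3 groups together. Over the 3 groups the count was 2 under each of 19 alternatives, chosen after the data were seen. Differences near 0 changed sign: at 1.0 μM against DMSO, Nanog was at -0.051 and Sall4 at 0.0016 with array weights, and leaving out 1 array gave -0.045 to 0.11 for Pou5f1, -0.042 to 0.059 for Nanog and -0.13 to 0.0094 for Sall4. Against 0.1 μM, Nanog was at 0.022 after quantile normalization and Sall4 ranged from -0.017 to 0.12 without 1 array. The cause of these shifts was not tested.

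The replicate number as a block left 2 calls at 1.0 μM against DMSO, 0 at 0.1 μM and 2 between the doses, and over all probe sets 3048, 810 and 3218 in place of 2744, 617 and 2947. The deviations of same-numbered arrays correlated from -0.023 to 0.51, not above 0.1 in every pair. The highest were between DMSO and 1.0 μM, at 0.51 for replicate 1 and 0.44 for replicate 3. Such mixed values cannot decide whether the numbers pair the arrays, and the main fit left them unpaired. Over all probe sets, 617 calls at 0.1 μM became 1399 with array weights and 143 to 176 without 1 array of that dose, 2744 at 1.0 μM became 1709 with 2 groups alone, and 2947 between the doses became 5048 with array weights and 1790 to 1899 without 1 array at 0.1 μM. Looser or 3-group rules gave 1326 (adjusted p under 0.1), 2447 (one-way F) and 3500 (moderated F) for 617, and the 1.5-fold rule gave 70, 294 and 284. Counts for the related lists at 1.0 μM ranged from 3 to 17 (network), 0 to 9 (protein partners), 0 to 7 (let-7 pathway) and 1 to 5 (families) over all alternatives.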
